A study of Mus musculus with 6 samples.

Results

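The genes of intraflagellar transport and of the Bardet-Biedl syndrome (BBS) machinery were followed in immortalized mouse cardiosphere-derived cells. Members were the protein-coding genes whose symbols are Ift, Bbs or Tctn with a number, together with Wdr19, Wdr35, Ttc21b, Arl13b, Arl3, Arl6, Cep290, Rpgrip1l, Mks1 and Tmem67. This rule uses names alone and took 34 of the 54532 genes in the table, of which 22046 are protein coding. All 34 had enough reads to be tested. Tctn2 falls outside the rule because the table lists it as a processed transcript.

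RNA was sequenced from 3 control and 3 induced libraries. Both groups share one source, C57BL/6 cells that grew out of the epicardium peeled from the ventricle of the heart. These cells were immortalized with the human telomerase gene hTERT and were taken at passage 30. The control cells carry no further treatment in the labels. Induced cells had 10 µM 5-azacytidine, an inhibitor of DNA methylation used here to start cardiac differentiation, for 3 days, and then 4 weeks of IMDM medium with 2% serum. Drug, serum and time in culture cannot be told apart in this comparison. All libraries come from one immortalized line, and no step that raised a single clone was found in the methods. The labels speak of separate samples but not of separate cultures, so p-values measure the spread between these samples, which may be technical.

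The primary cilium is a single antenna of microtubules and membrane that most resting cells build on the older centriole and take down before they divide. Trains of the IFT-B complex, pulled by kinesin, carry building blocks to its tip, and trains of the IFT-A complex, pulled by dynein, return them to the base and help membrane proteins in. The BBSome, a coat of BBS proteins, rides on these trains and takes membrane proteins out, while the transition zone at the base works as the gate. In the heart, cilia are known for their role in left-right patterning and valve formation, and hedgehog signalling passes through them.

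Regulatory factor X proteins bind the X-box, a DNA motif known from the promoters of ciliary genes in many animals. RefSeq promoter windows of build GRCm38.p6, from 250 bases before to 50 bases after the start of a gene, were found for 30 of the 34 members. Windows were missing for Ift122, Ift80, Ift81 and Tmem67. The core letters GTTGCC, searched on both strands, stood in the windows of 13 members (43.3%), beside 14.1% of all 27025 genes with a window. A pair of facing copies, GTTNCC and GGNAAC with 0 to 3 bases between them, stood in 5 members (16.7%), beside 0.936% of all genes and 1.05% of the tested protein-coding genes. The pair reads the same on both strands, and in these 5 members its first copy also holds the core letters. These were Tctn1, Tctn3, Ift57, Mks1 and Bbs7.

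The windows of the 3 members with the largest differences among those 5 are shown with the pair in capitals, each 5′ to 3′ on the strand of its gene. They lie at chr5:122264411-122264710 (minus strand), chr19:40612182-40612481 (minus strand) and chr16:49699044-49699343 (plus strand).
Tctn1: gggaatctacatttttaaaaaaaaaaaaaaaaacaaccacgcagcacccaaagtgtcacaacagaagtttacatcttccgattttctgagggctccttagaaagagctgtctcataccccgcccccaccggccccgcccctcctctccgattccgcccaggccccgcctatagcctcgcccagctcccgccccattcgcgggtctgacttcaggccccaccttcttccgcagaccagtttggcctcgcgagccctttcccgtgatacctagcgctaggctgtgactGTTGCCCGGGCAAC
Tctn3: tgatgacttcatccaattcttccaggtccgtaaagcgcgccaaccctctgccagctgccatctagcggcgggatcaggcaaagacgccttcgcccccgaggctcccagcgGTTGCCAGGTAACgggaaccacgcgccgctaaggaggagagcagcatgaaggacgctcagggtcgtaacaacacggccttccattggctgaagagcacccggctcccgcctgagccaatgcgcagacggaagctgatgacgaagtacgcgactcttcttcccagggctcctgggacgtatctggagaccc
Ift57: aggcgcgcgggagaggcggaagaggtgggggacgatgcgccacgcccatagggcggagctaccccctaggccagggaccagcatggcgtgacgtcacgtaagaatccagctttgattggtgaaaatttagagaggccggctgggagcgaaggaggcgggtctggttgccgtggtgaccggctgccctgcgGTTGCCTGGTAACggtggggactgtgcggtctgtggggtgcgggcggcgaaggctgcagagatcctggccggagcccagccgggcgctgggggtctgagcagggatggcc
The pair begins 37 bases into the transcribed part in Tctn1 and ends at its last printed base. Counted from the RefSeq start of the gene, it lies at -140 to -128 in Tctn3 and at -60 to -48 in Ift57. Ift57 as counted here starts earlier, at 49699233, so its pair (49699234 to 49699246) lies inside the counted gene. The pairs of the remaining members are shown to let their letters be compared.
Mks1: GTTGCCAGGGGAAC
Bbs7: GTTGCCTTGGAAAC
These pairs lie at -24 to -11 in Mks1 and at -121 to -108 in Bbs7, again from the RefSeq start. Bbs7 as counted here (minus strand) starts at 36613477, nearer to its pair at 36613497 to 36613510. Of the 5 genes with a pair, Tctn1 and Tctn3 were higher in induced cells, as given further on. Ift57, Mks1 and Bbs7 did not pass the test. None of the 12 members with a window that were lower in induced cells held the pair, while 4 of them held the core letters. A match of letters is a description and not a bound site.

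Libraries held 19041133 to 19823369 reads in genes, so that a count of 0 allows up to 0.151 to 0.158 CPM (the count scaled to library size), counting error only. The libraries of a group correlated with each other at 0.992 to 0.994 across genes, and those of different groups at 0.924 to 0.927. With replicates this close, the edgeR quasi-likelihood test called 64.8% of the 14246 tested genes at an adjusted p of 0.05, with 32.6% higher and 32.2% lower in induced cells. The cells were checked against markers. The 7 fibroblast and stroma markers had the highest sum of the marker lists. It was 19100 to 20100 CPM in control and 23000 to 24300 CPM in induced libraries, and all 7 were called, 5 higher and 2 lower. All 7 mesothelial and epicardial markers were called too, also 5 higher and 2 lower. Their sum of 678 to 709 CPM in control and 2200 to 2280 CPM in induced libraries was mostly that of Upk3b (254 and 942 CPM) and Lrrn4 (283 and 906 CPM). Both rose, and so did Msln (28.1 and 226 CPM, log2 fold change 3.01). The epicardial factors Wt1 (19.6 and 49.7 CPM, 1.34) and Tcf21 (14.4 and 40.3 CPM, 1.49) rose too. The epicardial factor Tbx18 (63.7 and 50.7 CPM, -0.33) fell, as did Krt19 (30.3 and 12.8 CPM, -1.24). The 8 cardiomyocyte markers summed to 1.5 to 1.68 and 3.93 to 4.36 CPM, and 2 of them could be tested. Myl7 was called higher, with no read in control libraries and 34, 20 and 20 reads in induced ones (edgeR adjusted p 1.38e-06), and Tnni3 did not pass the test. Myh6, which defines working cardiomyocytes, had no read in control cells and was at 0.0175 CPM in induced cells. The 6 endothelial markers stayed under 1 CPM in sum, and 5 of 6 leukocyte markers, Ptprc among them, had no read. The sixth, Lyz2, was called higher, at 3.76 CPM in control and 14.6 CPM in induced libraries (1.96 on the log2 scale, edgeR adjusted p 4.2e-10). The part of these marker differences in the changes of the members was not tested.

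Cells with many motile cilia use the same transport genes, so their markers were examined too. The 17 markers summed to 7.86 to 9.27 CPM in control and 6.7 to 8.39 CPM in induced libraries. Foxj1, the master regulator of motile cilia, was at 0.321 and 0.263 CPM, and Dnah5 and Sntn had no read in any library. Of the 3 markers with enough reads for the test, 2 were called lower (Dnaic2 and Tppp3), beside 32.2% of all tested genes. The third, Ccdc39, had a log2 fold change of 0.50 and did not pass the test. Some untested markers with few reads had groups that did not overlap. Dnah11 (2 reads in control and 33 in induced libraries), Hydin (0 and 10) and Tekt1 (1 and 5) were higher, and Ccno (34 and 10) was lower.

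Of the 34 members, 19 (55.9%) were called, 5 higher (14.7%) and 14 lower (41.2%) in induced cells. The shares over all tested genes stand above, so that fewer members than genes at large were called and more of the calls were falls. These shares are a description of the list and were not tested against other lists. A call with at least a 1.5-fold change was reached by 1 member upwards (Tctn1), beside 15.9% of all tested genes, and by 3 downwards (Bbs12, Bbs10 and Ift140), beside 15.0%. The groups did not overlap for 19 members, or 55.9%, beside 68.6% of all tested genes. The median log2 fold change was -0.11 over the members and -0.01 over all tested genes, and the median size of the change was 0.29 and 0.36. Reads of the members together made up 657 to 670 CPM of the plain library totals in the control group and 605 to 613 CPM in the induced group. In bulk RNA, fewer cells that express a gene and less RNA per cell cannot be told apart.

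**Figure D1:**
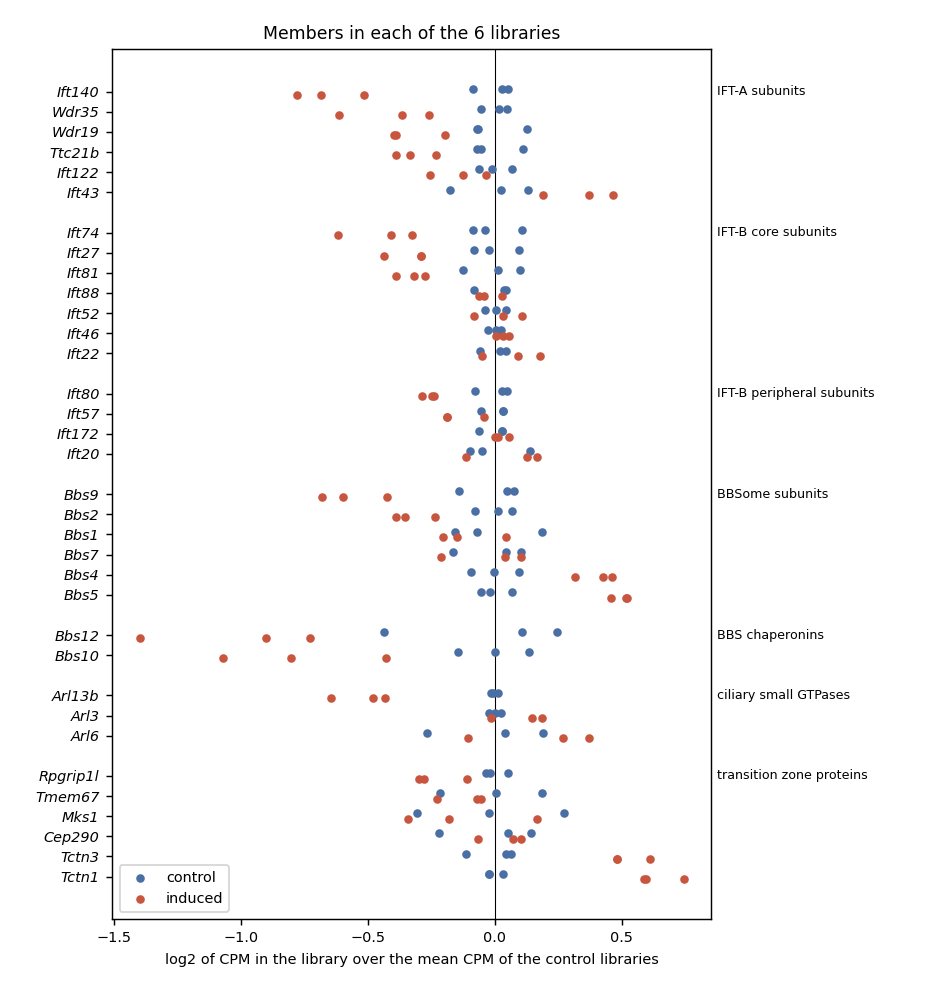
Log2 of the CPM of each member in each library over the mean CPM of the 3 control libraries, with members in rows by complex (control blue, induced red). The induced points of Ift140, Bbs12, Bbs10 and Arl13b lie left of all control points, and those of Ift43, Bbs4, Bbs5, Tctn3 and Tctn1 lie right of them.

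The levels per gene length spanned 0.499 FPKM (fragments per kilobase of gene, scaled to library depth) for Cep290 to 61.3 FPKM for Arl3 in control cells. The median of the members was 3.02 FPKM, beside 5.01 FPKM over all tested genes. After Arl3 came Ift20 at 26.6 ± 2.29 FPKM, and then Ift52 at 12.9 ± 0.393, Ift27 at 12.6 ± 0.806 and Ift43 at 11.5 ± 1.2 FPKM (SD, n = 3). Ift52 and its neighbour Ift27 did not differ beyond their spread. At the low end stood Bbs4 at 0.747 ± 0.0493 and Tmem67 at 0.987 ± 0.137 FPKM (SD, n = 3), with Cep290 below both. For Arl3 the table gives a length of 822 bases where the GENCODE M21 exons cover 2490 bases, and for Bbs1 5581 where they cover 7674. The levels per length of these genes therefore depend on the gene model, and Arl3 is near-identical to other genes over 11.6% of its longest transcript.

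**Figure D2:**
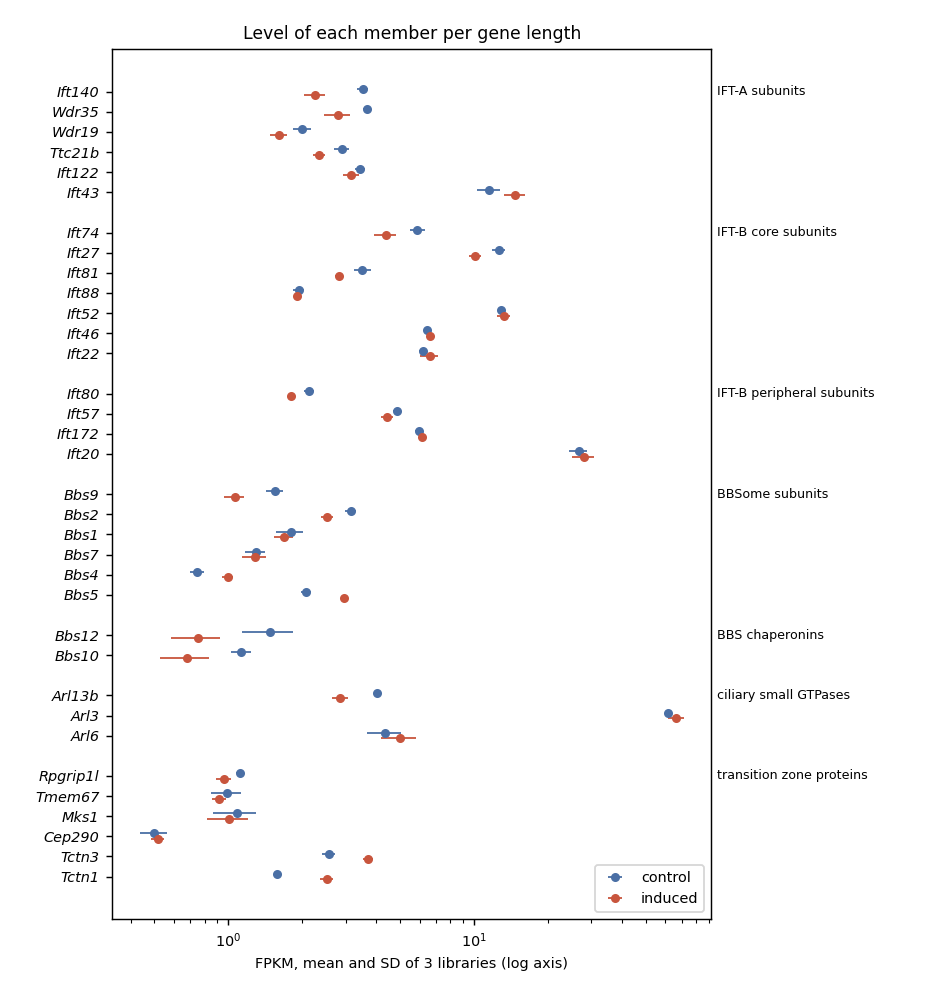
FPKM of each member on a log axis, as mean (point) and SD (bar) of 3 libraries, in control (blue) and induced (red) cells. Arl3 and Ift20 lie at the right end and Cep290 at the left end in both groups.

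IFT-A, the complex of return transport, had most of its members lower in induced cells. Of its 6 subunits, 4 fell, 1 rose and Ift122 did not pass the test. Over all tested genes, 32.2% were called lower and 32.6% higher, and the counts of each complex here and below stand against these shares. Counts over so few genes are a description and were not tested. Ift140 (chromosome 17, 25016085 to 25099495, plus strand), a subunit of the IFT-A core, was measured at 30.3, 28.0 and 30.8 CPM in the control libraries and at 20.8, 17.3 and 18.5 CPM in the induced ones. Each induced library lay below each control library. The log2 fold change was -0.65 (SE 0.08, edgeR adjusted p 1.43e-06), a decrease to 0.635 of the control level. Wdr35 (chromosome 12, 8973892 to 9028847, plus strand), a peripheral subunit, stood at 27.2, 27.8 and 25.9 CPM in control and at 20.9, 22.5 and 17.6 CPM in induced libraries. The groups did not overlap, and the lowest value was that of the third induced library. This gave a log2 fold change of -0.41 (SE 0.09, edgeR adjusted p 0.000524).

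Wdr19, another core subunit, fell from 22.8 ± 1.85 to 18.2 ± 1.46 CPM (SD, n = 3; edgeR adjusted p 0.00337). Ttc21b, a peripheral subunit, fell from 27.1 ± 1.94 to 21.8 ± 1.26 CPM (SD, n = 3; edgeR adjusted p 0.00189). Ift43, the smallest of the peripheral subunits, went the other way. It rose from 19.1 ± 2.02 to 24.3 ± 2.32 CPM (SD, n = 3), with a log2 fold change of 0.35 (edgeR adjusted p 0.00321). The ratio of reads of Ift43 to reads of Ift140 within a library, which no scaling of libraries changes, was 0.692, 0.694 and 0.55 in control and 1.19, 1.26 and 1.42 in induced libraries. This pair was chosen after its values were seen. For Ift122 the log2 fold change was -0.13, with a 95% interval of -0.28 to 0.01.

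IFT-B builds the trains that move outwards. Of the 7 core subunits measured, 3 fell and 4 did not pass the test. Ift74 (chromosome 4, 94614491 to 94693229, plus strand), which with Ift81 binds tubulin, was at 14.9, 15.4 and 17.0 CPM in control and at 10.3, 11.9 and 12.6 CPM in induced libraries. All induced values lay below all control values. Ift74 thus had a log2 fold change of -0.44 (SE 0.1, edgeR adjusted p 0.000927). Its partner Ift81 fell from 20.7 ± 1.63 to 16.5 ± 0.680 CPM (SD, n = 3; edgeR adjusted p 0.00279).

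Ift27, a small GTPase within IFT-B that takes part in the exit of the BBSome from cilia, fell by 0.34 on the log2 scale, with 36.5 ± 2.28 CPM in the control group and 28.9 ± 1.59 CPM after induction (SD, n = 3, edgeR adjusted p 0.000383). Ift46, Ift52 and Ift88, which form the scaffold of the core, had log2 fold changes of 0.03, 0.02 and -0.03. Their 95% intervals were -0.09 to 0.15, -0.12 to 0.16 and -0.26 to 0.21. Ift22, another GTPase-like subunit, had 0.07 with an interval of -0.09 to 0.24. The groups overlapped for all 4 of these genes.

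Of the 4 peripheral IFT-B subunits, Ift80 fell and the other members did not pass the test. Ift80 went from 26.7 ± 1.23 to 22.3 ± 0.384 CPM (n = 3 ± SD), with a log2 change of -0.26 (edgeR adjusted p 0.00491). Ift172, known for a role where trains turn around at the tip, was at 40.0 ± 1.44 and 40.6 ± 0.824 CPM (SD, n = 3), with an interval of the log2 fold change from -0.10 to 0.15. Ift20, which also resides at the Golgi and works in the traffic of membrane proteins to cilia, was at 38.2, 45.0 and 39.5 CPM in control and at 45.9, 37.8 and 44.7 CPM in induced libraries. The second induced library held the lowest value of Ift20. Without that library Ift20 passed the test, at 0.15 on the log2 scale (edgeR adjusted p 0.0364). Ift57 had a log2 fold change of -0.14 (interval -0.34 to 0.06), and 7.86% of its exon bases overlap an antisense gene that had 2 reads in all libraries together.

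**Figure D3:**
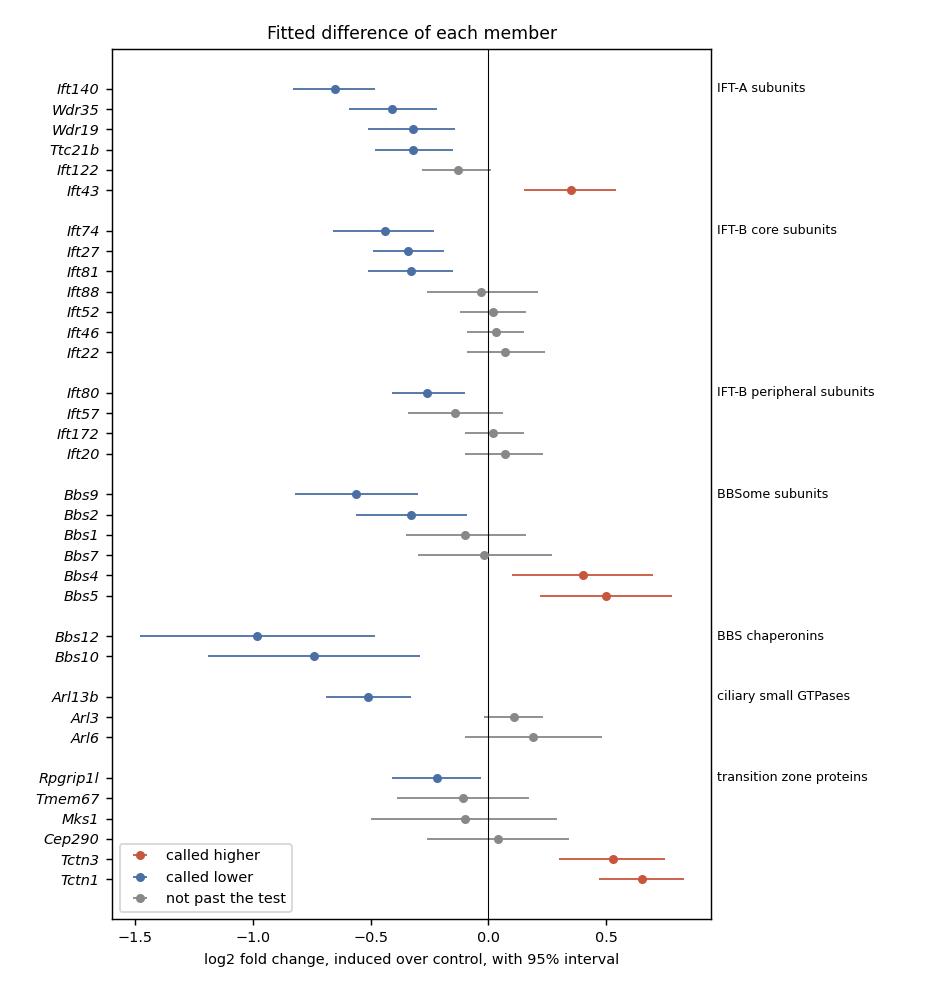
Log2 fold change of each member, induced over control, with its 95% interval from the edgeR fit, by complex (red called higher, blue called lower, grey not past the test). Bbs12 lies farthest left at -0.98 and Tctn1 farthest right at 0.65, and the intervals of the grey members include 0.

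The BBSome had calls in both directions. Of its 6 members measured here, Bbs9 and Bbs2 fell, Bbs4 and Bbs5 rose, and Bbs1 and Bbs7 did not pass the test. The calls of Bbs2 and Bbs4 were lost under 4 and 5 of the 17 other settings, DESeq2 among them (adjusted p 0.0873 and 0.0901). Bbs9 (chromosome 9, 22475715 to 22888280, plus strand), a scaffold of the BBSome core, was at 10.1, 10.3 and 8.87 CPM in control and at 7.28, 6.1 and 6.45 CPM in induced libraries. Each induced value lay below each control value. On the log2 scale this was -0.56 (SE 0.12, edgeR adjusted p 0.000616). Bbs2, which sits beside Bbs9 in that core, fell from 10.5 ± 0.545 to 8.38 ± 0.480 CPM (SD, n = 3; edgeR adjusted p 0.0152).

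Bbs5 (chromosome 2, 69647171 to 69667571, plus strand), a subunit that binds membrane lipids, was at 4.92, 5.05 and 5.36 CPM in control and at 7.02, 7.31 and 7.34 CPM in induced libraries. The groups were narrow and did not overlap. Fitted over all libraries, Bbs5 was higher by 0.50 on the log2 scale (SE 0.13, edgeR adjusted p 0.00282). Bbs4, a subunit that links the BBSome to centriolar satellites, rose from 4.55 ± 0.304 to 6.01 ± 0.312 CPM (n = 3 ± SD), with a log2 change of 0.40 (edgeR adjusted p 0.0216). Exons of Bbs4 share 3.21% of their bases with Adpgk on the opposite strand, which was also called higher (log2 fold change 0.17), and 10.5% of its longest transcript is near-identical to other genes, so its count is uncertain.

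The ratio of Bbs5 reads to Bbs9 reads was 0.485, 0.49 and 0.605 in control and 0.964, 1.2 and 1.14 in induced libraries, again a pair chosen after its values were seen. Bbs7, the third core propeller protein, had a log2 fold change of -0.02 with an interval of -0.30 to 0.27. Bbs1, which contacts the GTPase Arl6, had -0.10 with an interval of -0.35 to 0.16.

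Both BBS chaperonin-like genes fell, and theirs were the largest falls among the members. Their proteins help assemble the BBSome core. Bbs12 (chromosome 3, 37312554 to 37321453, plus strand) was at 2.69, 3.92 and 4.31 CPM in control and at 1.38, 1.95 and 2.2 CPM in induced libraries. The first library of each group was the lowest, and the groups did not overlap. The log2 fold change was -0.98 (SE 0.24, edgeR adjusted p 0.00153), with 216 reads in all control and 105 in all induced libraries. Bbs10 (chromosome 10, 111298679 to 111301727, plus strand) was at 3.14, 3.47 and 3.81 CPM in control and at 1.65, 2.58 and 1.99 CPM in induced libraries. Here too all induced values were lower. Its log2 fold change was -0.74 (SE 0.21, edgeR adjusted p 0.0056), on 206 and 118 reads. Both genes were among the members with the fewest reads, and their intervals, -1.48 to -0.48 and -1.19 to -0.29, are wide.

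Of the 3 ciliary GTPases, Arl13b fell and the others did not pass the test. Arl13b (chromosome 16, 62793685 to 62847040, minus strand), a protein of the ciliary membrane that activates Arl3, was at 21, 20.6 and 20.7 CPM in control and at 13.3, 14.9 and 15.4 CPM in induced libraries. The control values lay close together and well above the induced ones. On the log2 scale the difference was -0.51 (SE 0.08, edgeR adjusted p 3.55e-05). Arl3, which releases lipid-modified cargo inside cilia, was at 50.8 ± 0.867 and 54.8 ± 3.99 CPM (SD, n = 3). Its log2 fold change was 0.11 (interval -0.02 to 0.23), and without the second induced library it passed the test (0.17, edgeR adjusted p 0.00616). Arl6, which recruits the BBSome to membranes, had 0.19 with an interval of -0.10 to 0.48.

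Of the 6 transition zone genes, the tectonic genes Tctn1 and Tctn3 rose, Rpgrip1l fell and 3 did not pass the test. Tctn1 (chromosome 5, 122237848 to 122264460, minus strand), a member of the complex that forms the gate, was at 13.1, 13.6 and 13.1 CPM in control and at 20, 20.1 and 22.3 CPM in induced libraries. Every induced library was higher. The log2 fold change was 0.65 (SE 0.09, edgeR adjusted p 2.38e-06), the largest rise among the members. The count of Tctn1 is uncertain, as its longest transcript is near-identical to other genes over 4.46% of its bases. Exons of Tctn1 also share 25.5% of their bases with genes on the opposite strand, and the counting is not stated to use strand. The main partner, Hvcn1, stood at 9.25 ± 1.08 and 9.33 ± 0.849 CPM (SD, n = 3) with a log2 fold change of 0.01 (edgeR adjusted p 0.937).

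Tctn3 (chromosome 19, 40596446 to 40612233, minus strand), of the same family, was at 8.72, 8.82 and 7.81 CPM in control and at 11.8, 12.9 and 11.8 CPM in induced libraries. The groups did not overlap. Tctn3 had a log2 fold change of 0.53 (SE 0.11, edgeR adjusted p 0.000307), and no exon base is shared with another gene. Tctn2, the family member outside the rule, was at 12.7 ± 0.308 and 12.4 ± 0.319 CPM (SD, n = 3), with a log2 fold change of -0.04 and an interval of -0.23 to 0.16.

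Rpgrip1l, a scaffold of the transition zone, fell from 16.5 ± 0.519 to 14.1 ± 1.04 CPM (n = 3 ± SD), with a log2 change of -0.22 (edgeR adjusted p 0.037). This call was lost under 10 of the 17 other settings tried, with adjusted p up to 0.163. Cep290, which bridges microtubules and membrane, had a log2 fold change of 0.04 (interval -0.26 to 0.34). Mks1 had -0.10 (interval -0.50 to 0.29) and Tmem67, a membrane receptor of the gate, -0.11 (interval -0.39 to 0.17). Exons of Cep290 and Tmem67 overlap genes on the opposite strand over 7.58% and 5.42% of their bases.

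**Figure D4:**
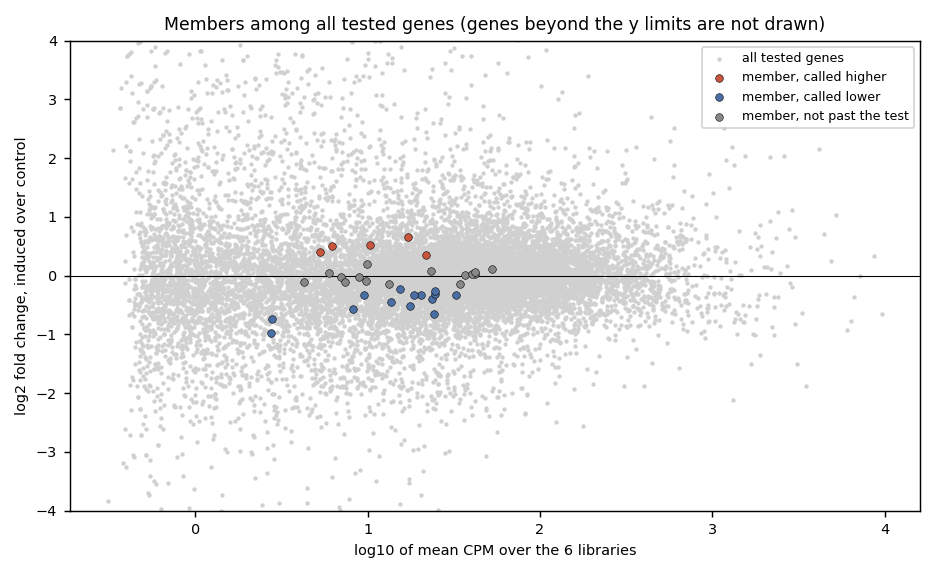
Log2 fold change of every tested gene against log10 of its mean CPM, with the members as larger points (red called higher, blue called lower, grey not past the test). The members lie between -0.98 and 0.65, within the cloud of all genes.

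The rest of the pathway was followed in lists of genes that the rule does not take. Of 130 genes in 9 ciliary lists, 110 had enough reads, and 25 were called higher (22.7%) and 44 lower (40%), beside the 32.6% and 32.2% of all tested genes. The counts of each list stand against these same shares. The median log2 fold change of the tested genes in these lists was -0.12. With DESeq2, 21 genes of these lists were called higher and 30 lower, beside 4497 and 3941 of the 25705 genes it fitted. Of 7 tested IFT subunits with other symbols, 3 fell and none rose. These were Rabl2, a GTPase that starts trains at the base (12.4 to 7.82 CPM, log2 fold change -0.67), Ttc26 (-0.52) and Ttc30a1 (-0.55).

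Of 12 tested motor genes, 3 were called higher and 3 lower, and the second count was 1 to 6 over the other settings tried (1 with DESeq2). The dynein light chain Dynlt3 rose from 55.4 ± 1.75 to 96.7 ± 5.96 CPM (n = 3 ± SD), with a log2 change of 0.80 (edgeR adjusted p 6.81e-10), and Dynlrb1 rose by 0.35 on the log2 scale. Both light chains also serve cytoplasmic dynein. Wdr34, an intermediate chain of the ciliary dynein, fell from 26.7 ± 0.583 to 17.2 ± 0.313 CPM (n = 3 ± SD), with a log2 change of -0.64 (edgeR adjusted p 5.35e-07). The kinesin subunit Kif3a had -0.12 (edgeR adjusted p 0.173). Of 8 further BBS genes, Lztfl1, which holds back the BBSome from cilia (0.52), and Bbip1 (0.31) rose, and Rab3ip (-0.28), Ttc8 (-0.37) and Mkks (-0.42) fell. Ttc8 and Bbip1 are BBSome subunits, and Mkks is the third chaperonin-like BBS gene, so all 3 genes of that family were lower. Of these 3, Mkks had the weakest call (edgeR adjusted p 0.0308), on 299 reads in control and 215 in induced libraries. Falls in this list of 8 were 2 to 4 over the other settings (2 with DESeq2).

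Of 19 further transition zone genes, 3 rose and 8 fell, and the second count was 3 to 10 over the other settings (3 with DESeq2). Tmem107 fell by 0.67 and Cc2d2a by 0.43 on the log2 scale. Of 17 genes of the centriole appendages and of cilium initiation, 3 rose and 7 fell. Alms1, a centrosomal protein, fell from 43.1 ± 1.12 to 18.1 ± 1.63 CPM (n = 3 ± SD), with a log2 change of -1.25 (edgeR adjusted p 4.48e-11), while Cep89 had -0.54 and Odf2 -0.32.

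The carriers of lipid-modified and membrane cargo were the ciliary list with more rises than falls, 6 against 2 of 14. Cys1, a lipid-modified protein of the ciliary membrane, rose from 31, 32 and 34 reads in the control libraries to 552, 496 and 546 in the induced ones. In CPM this was 1.63 ± 0.0662 and 28.0 ± 1.71 (SD, n = 3), a log2 fold change of 4.09 (SE 0.12, edgeR adjusted p 2.17e-15). Arl2bp (0.58) rose too, and Tulp3, the adaptor that IFT-A carries with membrane receptors, fell from 109.0 ± 1.71 to 78.6 ± 0.621 CPM (n = 3 ± SD), with a log2 change of -0.47.

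Hedgehog genes, whose products signal through cilia, were divided, with 5 of 15 higher and 6 lower. The co-receptors Boc and Cdon rose by 1.15 each on the log2 scale, Boc from 51.3 ± 3.49 to 114 ± 1.89 CPM and Cdon from 33.1 ± 2.07 to 73.5 ± 3.35 CPM (SD, n = 3). Ptch1, a receptor gene that is itself a hedgehog target, had a log2 fold change of -0.08 (edgeR adjusted p 0.517), and Gli1 was near 0 in both groups, at 0.034 and 0.158 CPM. The ligand gene Shh had no read in any library.

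Of 15 genes of ciliary transcription factors, 6 had enough reads, and 4 of them fell. Glis3 fell from 21.4 ± 0.358 to 13.9 ± 1.44 CPM, Rfx1 from 31.4 ± 1.82 to 22.3 ± 0.261 CPM and Rfx2 from 7.15 ± 0.418 to 4.13 ± 0.723 CPM (SD, n = 3). The log2 fold changes were -0.63, -0.49 and -0.79. Rfx3 had -0.14 (edgeR adjusted p 0.505), and Rfx6 and Foxn4 had no read. Of 12 genes of cilium disassembly and suppression, 8 fell and 3 rose, and the falls were led by genes of cell division. Plk1 fell from 65.5 ± 3.39 to 13.8 ± 1.18 CPM (n = 3 ± SD), with a log2 change of -2.24, and Nek2 and Aurka fell by 2.18 and 1.66 on the log2 scale. Pifo had no read.

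All 10 proliferation genes were called lower, with a median log2 fold change of -1.88, and their sum went from 1010 to 1030 CPM in control to 338 to 348 CPM in induced libraries. Bub1b, Cdc20 and Mki67 fell by 2.26, 2.39 and 2.01 on the log2 scale. This difference runs with every comparison of ciliary genes above, and its part in the changes of the members was not tested.

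**Figure D5:**
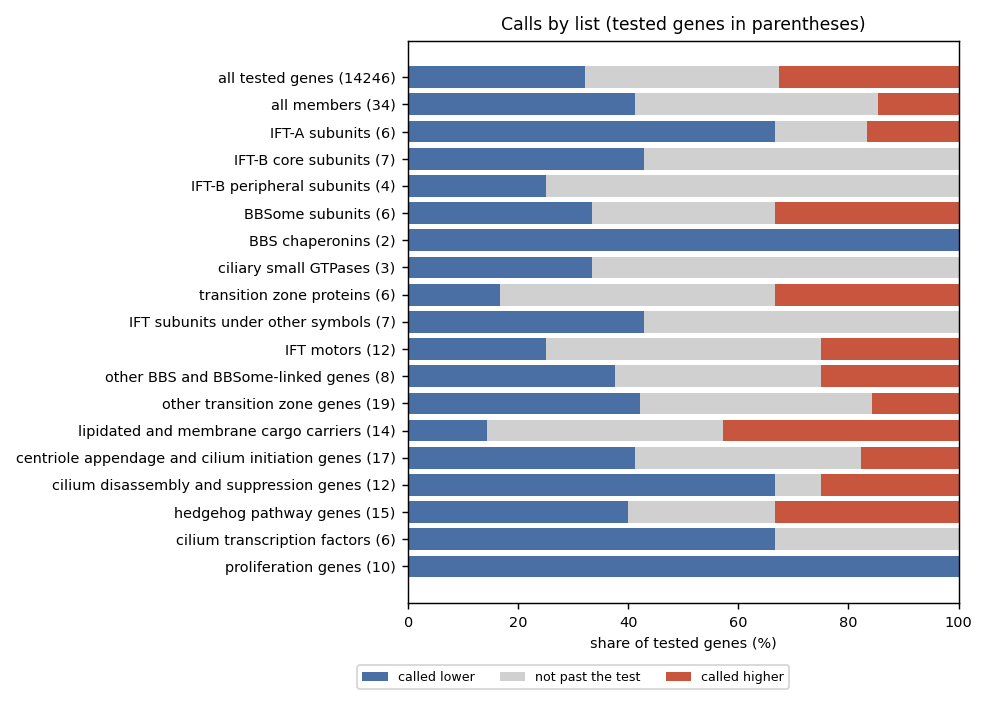
Share of tested genes called lower (blue), not past the test (grey) and called higher (red) in each list, with the number of tested genes in parentheses. Falls exceed rises in IFT-A, both parts of IFT-B, the chaperonins, the GTPases and the members together. They also do so in the other IFT, BBS and transition zone lists and among appendage, disassembly, hedgehog and transcription factor genes. Rises exceed falls among the cargo carriers and the member transition zone proteins, and the counts are equal for the BBSome and the motors. All 10 proliferation genes are blue.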

How the data were processed

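RNA sequencing libraries of 3 control and 3 induced samples were compared. Raw read counts of each gene and library were deposited by the authors, and so were their FPKM values (counts per gene length and depth) beside them. The submitters' processing notes name HISAT2 2.0.5, featureCounts 1.5.0-p3, DESeq2 1.16.1 and mm10. Their roles and the strand setting are not given in the sources used here, so overlapping genes are marked as uncertain. The table also holds the authors' own group means, fold changes and p-values, which were not used, as were the deposited Gene Ontology tables. The methods speak of DESeq on 2 replicates for a condition, where 3 columns were found for each group, and the medium and length of the later culture differ between methods and labels, which are followed here. Of the table's genes, 98.3% of those in GENCODE M21 have its coordinates.

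Counts were tested in R 4.3.3 with edgeR 4.0.16 (filterByExpr with minimum count 10 and minimum total 15, TMM scaling, quasi-likelihood test, two-sided, Benjamini-Hochberg adjustment over all 14246 tested genes at 0.05). These genes held 99.9% of the reads. CPM are TMM-scaled, and 95% intervals come from the standard error and the moderated degrees of freedom. Every pair of libraries within a group differed by more than sampling noise, with chi-square per degree of freedom from 2.56 to 8.91. The fit was repeated with DESeq2 1.42.0, with size factors from median ratios, with library totals, without a filter, with a stricter one (mean count 10, 1 CPM), and with the replicate number as a block. It was also repeated without each library in turn, at a threshold of 0.01, and with limma 3.58.1 on log2(FPKM + 1) or log2(FPKM + 0.1). On the limma scales a fold change understates that of low genes. After seeing the data, loess offsets (span 0.4) by GC content or by gene length were added. The tests were also run on simulated counts in which few genes changed, unlike in these data. There the share of false calls by edgeR exceeded the threshold of 0.05, and most of the smallest changes were missed. Near-identical means 95% identity over at least 100 bases in GENCODE transcripts.

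The members and lists were chosen with earlier results of these data known. Values in each library are given for called members with at least a 1.5-fold change and then for those with the largest changes until 10 genes were reached, and of each other list for up to 3 called genes with the smallest p and for genes without a read. Other genes named, such as Kif3a, Ptch1, Gli1 and Rfx3, were chosen after their values were seen. Some genes that this rule takes are not reported here.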

Additional observations from a re-analysis of the deposited data

How the results depend on the processing

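Over the 17 alternatives, 529 of 578 fold changes of members kept their direction and their side of the threshold, 19 lost the call, 8 gained it and 22 changed sign. Losses were those of Rpgrip1l (10 settings), Bbs4 (5) and Bbs2 (4). Gains were those of Ift122 (4), Arl3 (2), Ift20 and Ift57. The sign changed only for members not called in either fit. With library totals alone, Ift172 and Ift46 had -0.01 and Ift52 -0.02 on the log2 scale. With the GC content offset, Cep290 had -0.06, Ift172 -0.02, Ift46 -0.03 and Ift52 -0.04, and with the gene length offset -0.06, -0.05, -0.03 and -0.07. Leaving out a library took Bbs1 from -0.17 to 0.02, Bbs7 from -0.09 to 0.07, Cep290 from -0.06 to 0.12, Ift88 from -0.07 to 0.00, Mks1 from -0.26 to 0.06, Ift172 from -0.01 to 0.04 and Ift52 from -0.02 to 0.07, as lowest and highest values. Both offsets moved the median of all genes to -0.06.

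Members called with at least a 1.5-fold change were 4, and 0 with limma on log2(FPKM + 1), which shrinks the change of low genes. Genes of the other ciliary lists called lower were 44, and 29 at an adjusted p of 0.01, a stricter threshold. Over all 14246 tested genes, 4582 and 3809 were called lower at these thresholds. Leaving out each library gave 4 to 7 members called higher, 12 to 14 called lower, 4 to 5 with at least a 1.5-fold change, a median of -0.13 to -0.08, and 21 to 27 higher and 35 to 42 lower genes in the other lists. Those fits called 58.7% to 64.4% of all genes they tested. The 7 members called higher came without the second induced library, where 64.4% of genes were called. DESeq2 called 4 members higher and 12 lower, beside 4497 and 3941 of the 25705 genes it fitted (32.8% called in either direction). Of 340 counts of single lists, 41 moved by over 1.5 times. These were falls among transition zone genes (8, with 3 to 10), motors (3, with 1 to 6), hedgehog genes (6, with 3 to 6), cargo carriers (2, with 1 to 4) and IFT subunits with other symbols (3, with 3 to 5), and rises among appendage genes (3, with 1 to 3), further BBS genes (2, with 1 to 2) and IFT subunits with other symbols (0, with 0 to 1).

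The replicate numbers are shared between groups, but same-numbered libraries did not deviate together (correlations -0.002, -0.0151 and 0.0273), so they were not taken as paired. With the replicate block, 5 members were called higher and 14 lower, 4 changed at least 1.5-fold, the median was -0.11, and 25 and 41 genes of the other lists were called. That fit called 63.6% of all tested genes. At 3 libraries per group, members with few reads, such as Mks1 and Bbs12, have the widest intervals.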
